A study of Arabidopsis thaliana with 6 samples.

Results

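The 60 genes described here encode proteins of the large (60S) subunit of the cytosolic ribosome of Arabidopsis thaliana. They were chosen by locus, as the listed genes for RPL3 to RPL31, from the 33602 loci of the deposited count table, and they fall into 30 protein families. Of these families 8 are represented by 1 gene, 15 by 2 copies, 6 by 3 copies and 1 by 4 copies. All 60 loci matched the RefSeq annotation. Most of their product names are those of ribosomal proteins, in part under another numbering, while those of AT1G66580 (RPL10), AT3G49010 (RPL13), AT1G09590 (RPL21) and AT3G49910 (RPL26) give no ribosomal protein, and the families here follow the list of loci. RefSeq symbols cover only part of the copies, so copies are named below by locus.

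PolyA RNA was sequenced from whole imbibed seeds of wild type Col-0 in 6 libraries, 3 from seeds given a red pulse (Rp) and 3 from seeds given a far-red pulse (FRp). The Rp lasted 20 min at 0.05 µmol per square metre per second and set a calculated Pfr/P, the share of phytochrome in its active form, of 0.87. The FRp lasted 20 min at 42 µmol per square metre per second and set a calculated Pfr/P of 0.03. Before the pulse, seeds of both groups took up water in darkness for 2 h, received a first saturating FRp and then stayed dark at 5 °C for 3 days, and sampling followed 12 h after the pulse. The 3 libraries of a condition are described by the study as biological replicates. Their seeds came from 1 bulk harvest, so the p-values measure the spread between samples of that harvest.

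A ribosome is built from ribosomal RNAs and a fixed set of proteins, each needed once in nearly every particle. The RNA of the large subunit forms the peptidyl transferase centre, where amino acids are joined, and the proteins hold that RNA in shape, line the exit tunnel, form stalks that handle tRNAs and factors, and bridge to the small subunit. In plants most of these proteins are encoded by several closely related genes, so that the level of one protein depends on several copies. A dry seed carries ribosomes from its maturation, and the resumption of protein synthesis is among the early events of germination.

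The libraries held 24234421 to 32387080 gene counts. The labelled tissue was checked with 7 seed storage and oil body genes, which were present in every library at a summed level of 8095 to 12125 CPM (counts scaled to a common library total, here without TMM) after the Rp and 94983 to 107697 CPM after the FRp. A list of 5 green tissue genes summed to 630 to 902 CPM after the Rp and 243 to 315 CPM after the FRp, and 1 or more of these genes was at 0 in 5 of the 6 libraries. This sum is mostly that of 1 gene, and only 2 of the 5 passed the filter on low values used below. With TMM, RBCS1A averaged 654 CPM after the Rp and 306 after the FRp, and LHCB1.3 averaged 7.65 and 4.39. The part of these levels in the results was not tested, and in bulk samples fewer cells of a type and less RNA per cell cannot be told apart. Rp replicate 3 stood apart from the other libraries in the balance of reads along genes. The median ratio of reads on the first to the last intron junction, over 35 of the genes described here, was 0.291, 0.260 and 0.527 in Rp replicates 1, 2 and 3, against 0.313, 0.379 and 0.352 in the FRp libraries. Over 1562 genes of the genome it was 0.357, 0.320 and 0.688, against 0.406, 0.415 and 0.423. Its part in the results was not tested, and each main result is given with and without that library.

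The promoters of 6 copies are shown, from RPL9 and RPL6, the families in which copies differed most, and from RPL3, which holds the gene with the largest fold change of the 60. Each line gives 250 bases before the RefSeq gene start on the TAIR10.1 sequence, 5′ to 3′ on the gene's strand. Capitals mark the telo-box AAACCCTA and the site II elements TGGGCC and TGGGCT on either strand (TAGGGTTT, GGCCCA and AGCCCA), short motifs known from plant ribosomal protein promoters. The RPL9 copies AT4G10450 and AT1G33140 have promoters at chr4:6464559-6464808 (minus strand) and chr1:12022975-12023224 (plus strand).
AT4G10450: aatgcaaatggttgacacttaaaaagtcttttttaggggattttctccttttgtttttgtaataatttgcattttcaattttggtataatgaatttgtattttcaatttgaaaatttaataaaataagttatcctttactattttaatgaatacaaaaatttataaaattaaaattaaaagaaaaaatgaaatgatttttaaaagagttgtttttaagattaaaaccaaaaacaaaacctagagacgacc
AT1G33140: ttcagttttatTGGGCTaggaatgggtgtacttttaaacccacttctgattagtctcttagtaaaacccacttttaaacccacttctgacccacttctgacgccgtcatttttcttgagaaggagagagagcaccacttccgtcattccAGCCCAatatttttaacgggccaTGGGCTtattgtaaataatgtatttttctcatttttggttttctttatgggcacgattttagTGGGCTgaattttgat
The RPL6 copies AT1G18540 and AT1G74050 have promoters at chr1:6378581-6378830 and chr1:27849009-27849258 (both minus strand).
AT1G18540: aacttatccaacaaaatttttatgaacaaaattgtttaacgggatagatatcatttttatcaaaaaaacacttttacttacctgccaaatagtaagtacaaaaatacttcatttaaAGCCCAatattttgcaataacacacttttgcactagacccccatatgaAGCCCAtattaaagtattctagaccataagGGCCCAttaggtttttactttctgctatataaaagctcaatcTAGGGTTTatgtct
AT1G74050: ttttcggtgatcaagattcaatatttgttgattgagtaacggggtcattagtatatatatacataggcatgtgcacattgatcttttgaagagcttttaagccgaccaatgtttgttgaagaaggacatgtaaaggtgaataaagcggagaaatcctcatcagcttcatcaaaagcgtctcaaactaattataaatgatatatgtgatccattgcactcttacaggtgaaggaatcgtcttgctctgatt
The RPL3 copies AT1G61580 and AT1G43170 have promoters at chr1:22723153-22723402 (minus strand) and chr1:16266303-16266552 (plus strand).
AT1G61580: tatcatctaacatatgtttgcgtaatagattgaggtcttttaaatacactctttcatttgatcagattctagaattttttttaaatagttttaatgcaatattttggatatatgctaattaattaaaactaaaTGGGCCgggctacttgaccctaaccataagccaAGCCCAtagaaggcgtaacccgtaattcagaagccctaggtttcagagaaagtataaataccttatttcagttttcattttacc
AT1G43170: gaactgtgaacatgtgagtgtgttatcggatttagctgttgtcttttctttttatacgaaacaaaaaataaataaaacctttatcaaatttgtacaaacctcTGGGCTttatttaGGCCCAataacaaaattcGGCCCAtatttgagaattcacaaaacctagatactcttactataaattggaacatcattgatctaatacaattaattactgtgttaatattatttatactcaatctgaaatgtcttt
In RPL9 the copy with the larger fold change, AT4G10450, held none of these motifs, and AT1G33140 held 4 site II elements. In RPL6 it was the other way round: AT1G18540, with the larger fold change, held 1 telo-box and 3 site II elements, and AT1G74050 held none.

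Over all 60 promoters, 43 (71.7%) held at least 1 site II element, against 19.2% of 27443 annotated promoters of the same length and 24.9% of the promoters of tested genes. The telo-box was in 13 (21.7%), against 4.49% of all promoters, and both kinds of motif were in 10 (16.7%), against 1.36%. A match is a description of letters and no site of binding. The telo-box stood in 12 of the 47 genes called higher after the Rp and in 1 of the 13 not called, and a site II element in 32 of 47 and 11 of 13. No such split is given for other genes, and a link between motif and call was not tested.

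All 60 genes passed the filter on low values and all 60 had a higher fitted level after the Rp than after the FRp. Calls were made by the quasi-likelihood test of edgeR where the p-value, adjusted by Benjamini-Hochberg, was under 0.05 and the levels differed more than 1.5-fold. By this rule, with its fold threshold at 0.585 on the log2 scale, 47 genes were called higher and 0 lower. Among all 16924 tested genes 28.8% were called higher and 26.8% lower. By adjusted p alone 57 of the 60 were called higher, where 38.3% of all tested genes were. The log2 fold changes were 0.14 to 2.04, with a median of 0.93 (a 1.91-fold difference) and quartiles of 0.63 and 1.33. Of the 13 genes not called, 10 had an adjusted p under 0.05 but a fold change of 1.5 or less, and 3 did not reach it. The 3 Rp libraries lay above the 3 FRp libraries for 58 of the 60 genes, against 39.9% of all tested genes.

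**Figure D1:**
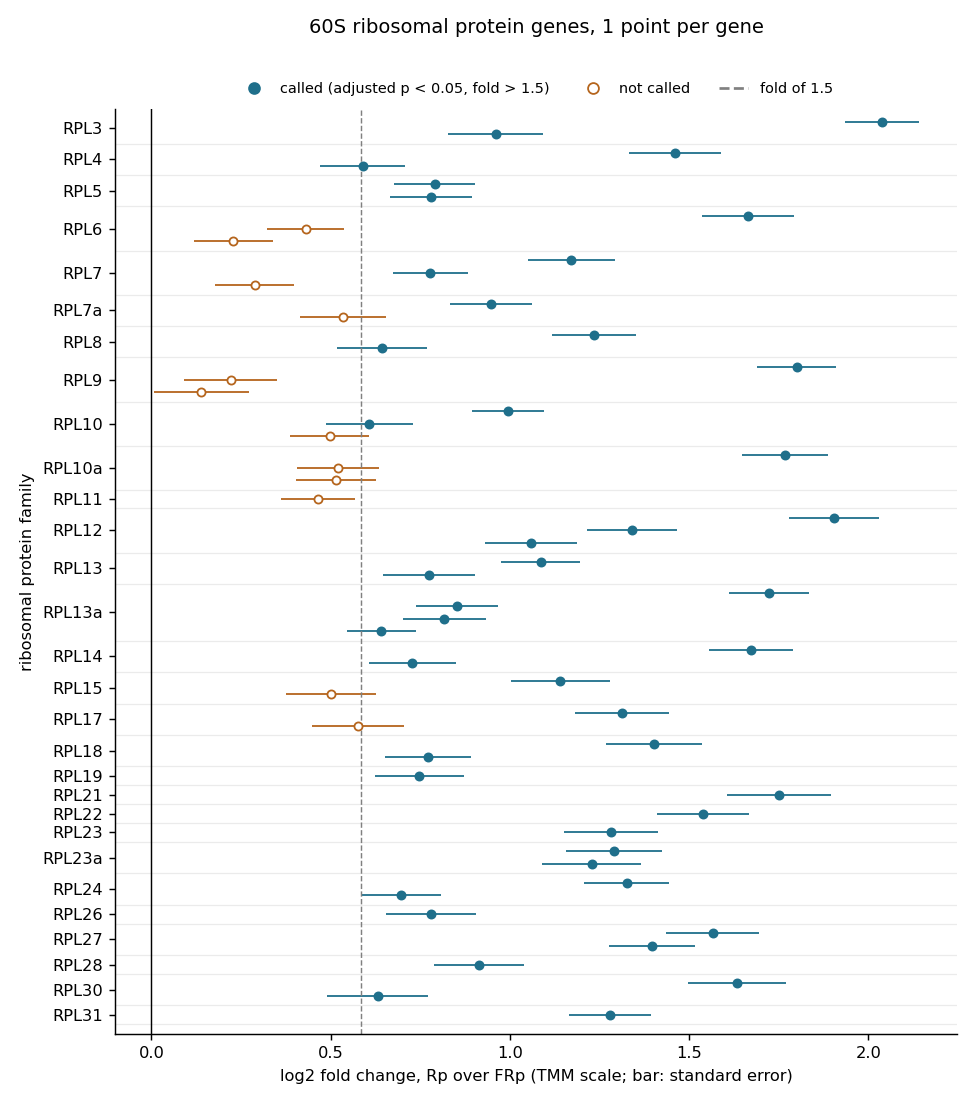
Log2 fold change (Rp over FRp, x axis) of 58 of the 60 genes, grouped by family down the y axis, with the standard error as a bar. Filled points are the 46 called genes among them and open points the 12 others, and the dashed line marks a fold of 1.5.

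These fold changes, and the CPM levels of single genes given below, are scaled by TMM, which multiplied library totals by 1.15 to 1.18 in the Rp libraries and by 0.831 to 0.901 in the FRp libraries. On library totals alone the median of all tested genes moved to 0.45, against 0.02 with TMM, and that of the 60 genes to 1.36, with 59 called higher where 44.5% of all genes were. Relative to the median of all genes, the median of the 60 was 0.91 higher on either scale. Leaving out Rp replicate 3 gave 47 called genes and a median of 0.91. Unscaled, the 60 genes took 6.22, 6.40 and 5.98% of all gene counts in the Rp libraries, against 2.31, 2.57 and 2.78% in the FRp libraries. The Rp libraries averaged 6.20 ± 0.21% and the FRp libraries 2.56 ± 0.24% (SD, n = 3 each), and the exact two-sided permutation test gave p = 0.1, the smallest it can give with 3 against 3. The difference was 3.64 percentage points, and 3.75 without Rp replicate 3. Without the 20 genes with the most reads, none of them among the 60, the shares were 6.29 to 6.88% after the Rp and 3.16 to 3.71% after the FRp.

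Among the proteins around the peptidyl transferase centre and the exit tunnel, the RPL3 copy AT1G61580 showed the largest fold change of the 60. It read 79.3, 87.6 and 91.3 CPM after the Rp, against 19.3, 20.7 and 22.8 CPM after the FRp. That is a log2 fold change of 2.04 (SE 0.10, adjusted p = 5.27e-09 by edgeR), and the groups did not overlap. The other RPL3 copy, AT1G43170, read 1576, 1629 and 1964 CPM after the Rp, against 822, 868 and 967 CPM after the FRp, a log2 fold change of 0.96. RPL4, which lines the tunnel, had a copy with 1.46 (AT5G02870) and one with 0.59 (AT3G09630), and AT3G09630 was no longer called without Rp replicate 3 (0.55). RPL8 copies had log2 fold changes of 1.23 (AT4G36130) and 0.64 (AT2G18020). At the tunnel mouth RPL17 copies had 1.31 (AT1G27400) and 0.577 (AT1G67430, not called), and RPL23a copies 1.29 and 1.23. The single genes of RPL19, RPL26 and RPL31 had 0.75, 0.78 and 1.28.

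The listed genes of the proteins that hold the 5S RNA, RPL5 and RPL11, had fold changes below the median of the 60. The RPL5 copies had log2 fold changes of 0.79 (AT3G25520) and 0.78 (AT5G39740). The 1 listed RPL11 gene, AT2G42740, had 0.47 with an adjusted p of 0.001 by edgeR, under the fold threshold. Its mean level after the Rp was 109 CPM per kb of exon, against 1154 for AT3G25520 and 1011 for AT5G39740. It need not stand for RPL11 as a whole. RPL24 and RPL30 bridge to the small subunit. RPL24 copies had 1.33 (AT2G36620) and 0.70 (AT3G53020, known as STV1). The RPL30 copy AT1G77940 read 1080, 1112 and 861 CPM after the Rp, against 297, 326 and 360 CPM after the FRp, and the copy AT3G18740 read 649, 723 and 509 CPM after the Rp, against 389, 381 and 445 CPM after the FRp. Their log2 fold changes were 1.63 and 0.63, and the smaller one lay near the threshold.

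RPL12 forms the base of the stalk that recruits translation factors, and all 3 copies were called higher after the Rp. AT5G60670 had the second largest fold change, with 327, 339 and 294 CPM after the Rp, against 76.9, 78.6 and 101 CPM after the FRp, a log2 fold change of 1.90 (SE 0.13, adjusted p = 4.3e-08 by edgeR). The other RPL12 copies had 1.34 (AT3G53430) and 1.06 (AT2G37190). RPL10a forms the other stalk, beside the site where spent tRNA leaves. The copy AT5G22440 read 485, 546 and 565 CPM after the Rp, against 142, 155 and 172 CPM after the FRp, a log2 fold change of 1.77. The copies AT1G08360 and AT2G27530 (PGY1, named for a leaf polarity mutant) each had a log2 fold change of 0.52, under the fold threshold at adjusted p = 0.00113 and 0.00121 by edgeR. AT1G08360 read 716, 769 and 689 CPM after the Rp, against 487, 494 and 541 CPM after the FRp. AT2G27530 read 1157, 1223 and 1206 CPM after the Rp, against 775, 847 and 879 CPM after the FRp. RPL10 joins the subunit late in its assembly, and its copies AT1G26910, AT1G14320 (SAC52) and AT1G66580 had 0.99, 0.61 and 0.50.

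RPL9, which lies near the base of the factor stalk, spanned most of the range within 1 family. AT4G10450 read 239, 268 and 263 CPM after the Rp, against 65.1, 76.4 and 79.6 CPM after the FRp, a log2 fold change of 1.80 (SE 0.11, adjusted p = 2.15e-08 by edgeR). The pair of near-identical copies AT1G33140 (PGY2) and AT1G33120 gave no call. AT1G33140 read 1947, 1845 and 1617 CPM after the Rp, against 1575, 1493 and 1845 CPM after the FRp, so the groups overlap (log2 fold change 0.14, adjusted p = 0.36). AT1G33120 read 1903, 1795 and 1675 CPM after the Rp, against 1485, 1381 and 1744 CPM after the FRp (0.22, adjusted p = 0.14). Their coding sequences are 99.1% identical and their transcripts share a run of 565 bases, so the division of reads between the 2 copies is uncertain. On library totals without TMM AT1G33120 was called higher, and AT1G33140 was the 1 gene of the 60 that was not.

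RPL6 and RPL14 lie together on the surface of the subunit. AT1G18540 (RPL6) read 1218, 1240 and 1125 CPM after the Rp, against 334, 368 and 429 CPM after the FRp, a log2 fold change of 1.66. AT1G74050 read 594, 650 and 613 CPM after the Rp, against 513, 509 and 563 CPM after the FRp (0.23, adjusted p = 0.077), and AT1G74060 read 537, 589 and 556 CPM after the Rp, against 420, 400 and 429 CPM after the FRp (0.43, adjusted p = 0.0029). AT2G20450 (RPL14) read 368, 363 and 313 CPM after the Rp, against 96.1, 115 and 117 CPM after the FRp, a log2 fold change of 1.67. In both families the groups were apart for every copy. AT4G27090, the gene with the most reads per kb after the Rp, read 1466, 1480 and 1271 CPM after the Rp, against 812, 818 and 916 CPM after the FRp (0.73). The RPL7 copy AT2G44120, with 618, 639 and 631 CPM after the Rp against 486, 510 and 550 CPM after the FRp, had the fourth smallest log2 fold change, 0.29 (adjusted p = 0.030), while AT2G01250 and AT3G13580 had 1.17 and 0.78. Of the 4 RPL13a copies, AT4G13170 had 1.72, with 200, 208 and 185 CPM after the Rp against 52.3, 60.8 and 66.5 CPM after the FRp, and the others 0.64 to 0.85. AT5G48760, the lowest of these, read 201, 204 and 211 CPM after the Rp, against 131, 123 and 141 CPM after the FRp. The RPL21 gene AT1G09590 read 839, 867 and 654 CPM after the Rp, against 213, 220 and 268 CPM after the FRp, a log2 fold change of 1.75. The other families included called genes at 1.54 (RPL22), 1.57 (RPL27, AT3G22230), 0.77 (RPL18, AT5G27850), 0.91 (RPL28) and 1.28 (RPL23), and RPL15 copies had 1.14 and 0.50, RPL7a 0.95 and 0.53, and RPL13 1.09 and 0.78. The other copies of RPL18 (AT3G05590) and RPL27 (AT4G15000) were called at 2.64-fold and 2.63-fold higher levels after the Rp.

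**Figure D2:**
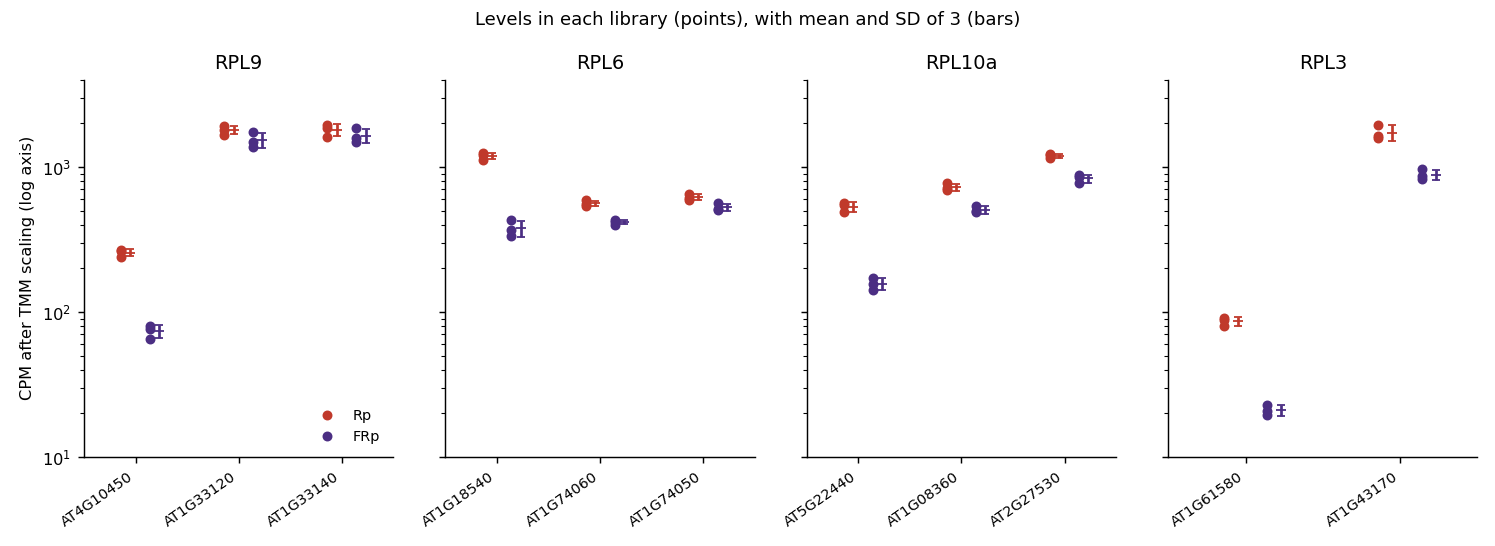
Level of each copy of RPL9, RPL6, RPL10a and RPL3 in each library (points, CPM after TMM on a log axis), Rp in red and FRp in violet, with mean and SD of 3 beside them. The RPL9 copies AT1G33120 and AT1G33140 overlap between conditions, and for every other copy drawn the Rp libraries lie above the FRp libraries. AT4G10450, AT1G18540, AT5G22440 and AT1G61580 have the largest fold change of their families.

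When the listed copies of each family were summed, 28 of the 30 families were called higher after the Rp, where 28.8% of all rows were. In 8 families this total is that of 1 listed gene. The exceptions were RPL9 (log2 fold change 0.25, SE 0.13, adjusted p = 0.11), whose total is held by the 2 near-identical copies, and RPL11 (0.47, under the fold threshold, 1 listed gene of low level). Both were called on library totals without TMM. The largest family values were those of RPL21 (1.75) and RPL22 (1.54), each 1 listed gene, and RPL27 (1.46). Among families with several listed copies, RPL27 and RPL12 (1.31) had the largest totals. In 20 of the 30 families every listed copy was called, among them each family of 1 listed gene except RPL11. In 9 families with several copies some copies were called and others not, while on library totals without TMM RPL9 was the only such family. No matching share of other gene families is given. A mixed family does not by itself show a difference between copies. In RPL10 AT1G14320 (0.61) was called and AT1G66580 (0.50) was not, but their ratio, tested as below, gave no call (difference 0.12, interval −0.14 to 0.37). Without Rp replicate 3, 28 families and 21 of the pairs of copies described next were called.

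The difference between copies was tested on the ratio of their counts, which does not depend on the scaling of libraries. Of 39 pairs within the 22 families with several copies, 21 in 16 families were called by limma, with the same thresholds applied to the ratio. Among 16923 pairs of consecutive tested loci 62.6% were called, a larger share than among the copies. By adjusted p alone 27 of the 39 pairs were called, against 68.6% of consecutive pairs. The groups did not overlap for 34 of the 39 pairs, against 73.8% of consecutive pairs. For the called pairs each ratio below is that of the copy with the larger fold change to the other copy. The largest change was that of AT4G10450 to AT1G33140, 0.143 after the Rp, against 0.045 after the FRp, a difference of 1.66 on the log2 scale (95% interval 1.29 to 2.04, adjusted p = 0.00018). The ratio of AT1G18540 to AT1G74050 (RPL6) came to 1.93 after the Rp, against 0.711 after the FRp (difference 1.44, interval 1.16 to 1.73). AT5G22440 to AT1G08360 (RPL10a) gave 0.734 after the Rp, against 0.308 after the FRp (1.25), and AT4G13170 to AT5G48760 (RPL13a) gave 0.962 after the Rp, against 0.453 after the FRp (1.09). For each of these pairs the ratio was higher in all 3 Rp libraries than in any FRp library. AT1G61580 to AT1G43170 (RPL3) gave 0.0501 after the Rp, against 0.0236 after the FRp (1.08). AT1G77940 to AT3G18740 (RPL30) gave 1.63 after the Rp, against 0.809 after the FRp (1.01), and AT2G20450 to AT4G27090 (RPL14) gave 0.248 after the Rp, against 0.128 after the FRp (0.95). The coding sequences of these pairs are 79.2 to 84.8% identical. For 18 pairs no call was made, and a difference that misses the threshold does not show that the copies respond alike. The RPL5 copies differed by 0.01 (interval −0.23 to 0.25), the RPL10a copies AT1G08360 to AT2G27530 by −0.01 (interval −0.27 to 0.25) and the RPL23a copies by −0.06 (AT2G39460 to AT3G55280, interval −0.31 to 0.19). The variance of each pair was drawn by limma toward that of all pairs fitted together, consecutive pairs included. The intervals and p-values of the ratios therefore do not rest on a pair's own spread alone. For RPL5 the log2 ratio had an SD of 0.019 in the Rp and 0.030 in the FRp libraries, against an SE of 0.0996 for the difference.

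**Figure D3:**
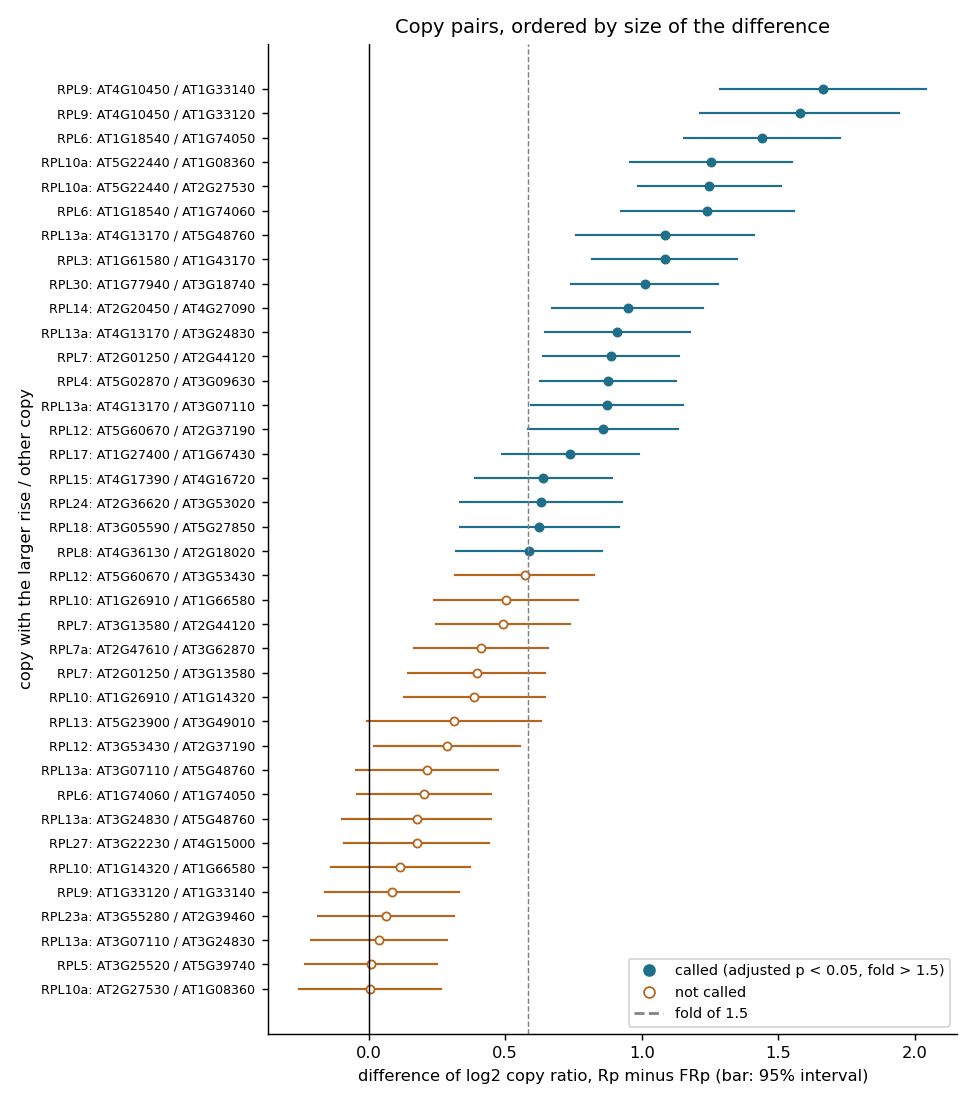
Change of the log2 ratio between 2 copies (Rp minus FRp, x axis) for 38 of the 39 pairs, each written as the copy with the larger fold change over the other, with the 95% interval as a bar. Filled points are the 20 called pairs among them, and the last pairs have intervals that span 0.

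Within some families the order of the copies differed between conditions. Per kb of exon, AT1G18540 made up 54.2 ± 1.4% of the RPL6 transcripts after the Rp, against 31.8 ± 2.1% after the FRp, and AT1G74050 made up 23.3 ± 0.71% after the Rp, against 37.1 ± 0.53% after the FRp (SD, n = 3 each). AT1G77940 was the larger RPL30 copy after the Rp, with 58.1 ± 1.2%, and the smaller one after the FRp, with 40.8 ± 1.4%. AT5G02870 likewise held 56.5 ± 0.27% of RPL4 after the Rp, against 41.4 ± 1.1% after the FRp. In RPL18 AT3G05590 held 56.1 ± 2.5% after the Rp, against 45.4 ± 0.39% after the FRp, and its ratio to AT5G27850 differed by 0.62 on the log2 scale (interval 0.33 to 0.92), a call that was lost without Rp replicate 1 (0.57). In RPL3 and RPL9 the order was the same in both conditions: AT1G61580 held 5.53 ± 0.38% of RPL3 after the Rp, against 2.68 ± 0.02% after the FRp, and AT4G10450 held 6.99 ± 0.82% of RPL9 after the Rp, against 2.38 ± 0.28% after the FRp.

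Regardless of sign, the median difference was 0.62 over the 39 pairs of copies, taken from the log2 count ratios. Over 1731 pairs of members from different families it was 0.48, taken from the log2 fold changes of edgeR. Both are given as a description. Over the 60 genes, Spearman's rho between the log2 fold change and the level per kb after the FRp was −0.54 and Pearson's r −0.56, where FRp libraries enter both measures. Against the level after the Rp rho was −0.21. The 20 genes lowest after the FRp had a median log2 fold change of 1.29 with 18 called, and the 20 highest 0.71 with 14 called. In 18 of the 21 called pairs, and in 30 of all 39, the copy lower per kb after the FRp had the larger rise. FRp libraries again enter both measures, in these counts and in the comparison of the 20 lowest with the 20 highest genes. That overlap by itself favours a larger rise of the lower copy. Some copies also recur in more than 1 pair, and no matching share of other pairs is given. The counts are therefore a description and no test of a link between level and rise. Levels per kb spanned 33.1-fold after the Rp (63.6 to 2101 CPM per kb) and 111-fold after the FRp (15.5 to 1722).

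**Figure D4:**
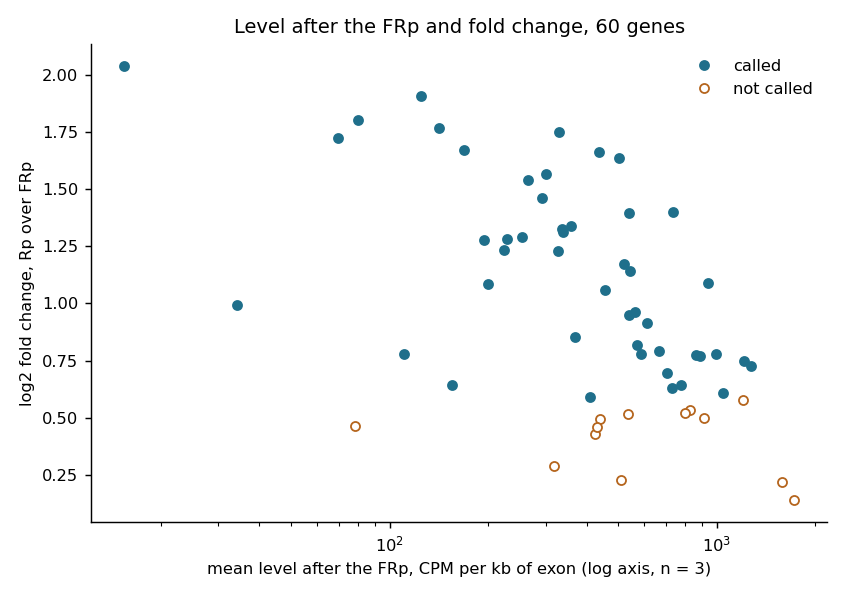
Log2 fold change (Rp over FRp) against the mean level after the FRp in CPM per kb of exon on a log axis, 1 point per gene. Points at the low end lie mostly higher and the 2 RPL9 copies AT1G33140 and AT1G33120 lie lowest at the right. FRp libraries enter both axes.

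Of a list of 79 further 60S loci, 70 were tested, of which 55 were called higher and 0 lower, with a median log2 fold change of 0.94. Its extremes were an RPP0 gene, AT2G40010 (2.47), and an RPL41 gene, AT3G08520 (−0.09, adjusted p = 0.60 by edgeR). Of 24 listed nuclear genes of the plastid 50S ribosome 24 were called higher, with a median of 0.90, from AT3G27850 (0.66) to AT1G05190 (1.88). All 7 seed storage and oil body genes were called lower, with a median of −3.06. Of all tested genes 28.8% were called higher and 26.8% lower.

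Junction reads allowed a test of 191 splice events in 54 of the 60 genes, 186 of them retained introns. Retention was mostly rare, with a median of 0.189% in the Rp libraries, against 0.155% in the FRp libraries. It was below 1% in both conditions for 164 of the 186, and above 5% in 1 condition or both for 7. With thresholds of 0.15 for the adjusted p of edgeR and 0.5 percentage points for the difference, 2 of the 191 events were called, and 2.5% of all 28466 tested events were. The larger was a 94-nt intron between coding exons of the RPL9 copy AT4G10450, at chr4:6463990-6464083 (minus strand), shown with 15 bases on either side and its first and last dinucleotides in capitals.
AT4G10450 intron: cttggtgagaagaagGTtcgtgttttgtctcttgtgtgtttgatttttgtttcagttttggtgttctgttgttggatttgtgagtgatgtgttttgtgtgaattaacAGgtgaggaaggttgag
Retention was 0.585, 0.555 and 0.385% in the Rp libraries, against 6.76, 10.1 and 6.45% in the FRp libraries. Between 14 and 16 reads crossed the exon–intron boundaries in each Rp library and 30, 79 and 48 in the FRp libraries, beside 1343 to 1812 and 207 to 350 spliced reads. The difference was −7.27 percentage points (adjusted p = 2.76e-14), and it was called in every alternative (−7.21 points without Rp replicate 3). The second event lies in untranslated sequence of the RPL13 gene AT3G49010, with 0.907, 0.791 and 0.723% after the Rp, against 0.447, 0.203 and 0.174% after the FRp (0.53 points, adjusted p = 0.12). With 1 library left out it was called only without FRp replicate 1, and without Rp replicate 3 the adjusted p was 0.18. Without Rp replicate 3, 3 events were called, and without Rp replicate 1 only 1.

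**Figure D5:**
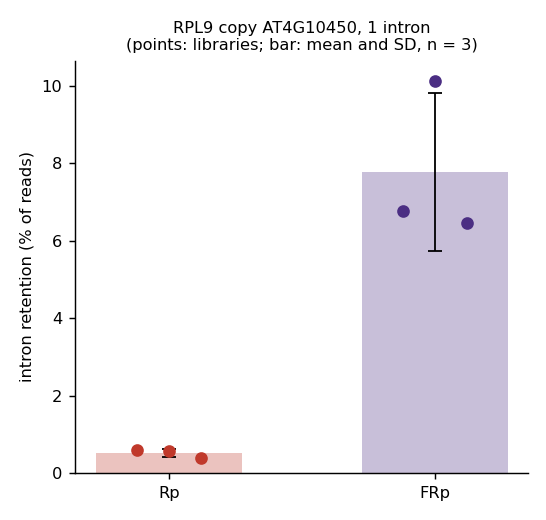
Retention of the 94-nt intron of AT4G10450 in percent of reads, in the Rp and the FRp libraries (points), with bars for mean and SD of 3. The 3 Rp libraries lie under 1% and the 3 FRp libraries between 6.45 and 10.1%.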

How the data were processed

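The authors aligned paired-end reads to TAIR10 with TopHat2 2.1.1 and deposited raw gene counts for 33602 loci and counts of junction reads, beside splicing values per condition as fractions over pooled libraries. Those fractions were not used, and whether counting used strand is not given in the sources used here. Levels were tested with edgeR 4.0.16 (R 4.3.3, TMM, quasi-likelihood) for the 16924 genes that passed, in 1 condition or more, a minimum of 10 for the mean count and of 0.05 for reads per base of exon, ratios of copies with limma 3.58.1 (pseudocount 0.5) and splicing with edgeR on inclusion and exclusion reads, with 10 reads on average in each condition and 5 in all on each side. Spliced reads were counted 2 times in the retention percentage, since a retained intron has 2 boundaries. Standard errors were taken from the F statistic and the log2 fold change. Promoters and introns were read from RefSeq TAIR10.1.

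Members and lists were chosen with earlier results of these data known. By the rule for named genes, values in each library were given for the 5 highest and 5 lowest fold changes, the copies of up to 10 called pairs and the 3 genes with the most reads per kb, and other genes by fold change. Tests were tried on simulated data. DESeq2 1.42.0, other filters and each library left out in turn were alternatives. The copies of 1 family count in the totals but are not reported here singly.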

Additional observations from a re-analysis of the deposited data

How the results depend on the processing

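The count of called genes, 47, was 46 by DESeq2, 46 with no filter, 46 under a stricter minimum count of 50, and 43 to 49 with each library left out. It was 57 by adjusted p alone, where 38.3% of all genes were called higher, 59 without TMM, where 44.5% were, and 27 at a fold change over 2, where 18.2% of all genes were called. The 28 called families were 27 to 28 with each library left out and 10 at a fold change over 2, where 18.2% of all rows were called. The median log2 fold change of 0.93 was 1.36 without TMM and 0.88 to 1.0 with a library left out. AT3G09630 lost its call by DESeq2 (0.57), with no filter or a stricter one, and without Rp replicate 3 or FRp replicate 1 or 2. AT3G18740 lost it without Rp or FRp replicate 2, AT2G18020 without FRp replicate 2, and AT1G14320 without Rp replicate 2 or FRp replicate 1 or 2. AT1G67430 gained a call without Rp or FRp replicate 3, and AT3G62870 without FRp replicate 3. Of the 39 pairs, 21 were called, 27 by adjusted p alone (68.6% of consecutive pairs) and 18 to 21 with each library left out. AT1G08360 over AT2G27530, −0.01 with all libraries, was −0.0374 to 0.0368 with 1 left out. The 2 called splice events were 1 at an adjusted p under 0.05, 1 to 3 with a library left out, and 3 with 20 reads. The replicate numbers did not pair the libraries (correlations of deviations 0.039, −0.113 and −0.0517). With the number as a replicate block 47 genes, 28 families, 21 pairs and 1 splice event were called. The share difference of 3.64 points was 3.52 to 3.76 with each library left out. With 3 libraries a group, small fold changes near the threshold are the least certain.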
